A study of Mus musculus with 8 samples.

Results

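The genes described here are 34 genes of Schwann cells and of the neural crest, measured by bulk RNA-seq in mouse aortic smooth muscle cells (MASMCs). They were found by their symbols among 18533 gene symbols counted in every sample. They were chosen from a list of Schwann cell, neural crest and myelin genes that was drawn up with the genotype difference in view and that named *Sox10* and *Ngfr* for being low, so the genotype values of the members are descriptions and carry no test. The members were split by role into 13 genes of the neural crest and of Schwann cell precursors, 10 genes of myelin, 6 genes of nonmyelinating or general glia and 5 others.

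The study asked how HINT1, a nucleotide-binding protein of the histidine triad family, acts in vascular smooth muscle cells in aortic aneurysm. The samples were 4 of MASMCs from WT mice and 4 of MASMCs from *Hint1*-/- mice. Both genotypes had been given PDGF-BB, a growth factor that moves smooth muscle cells away from the contractile state, at 20 ng/mL for 24 hours, and no untreated sample was analysed here. Per the study's supplement the cells were released with collagenase from whole aortas, after the adventitia and endothelium had been stripped. Its main methods name thoracic aortas of male mice aged 4 to 6 weeks, so the part of the aorta used is uncertain. Whether the samples of a genotype came from separate mice or cultures was not given in the sources used here, so that the p-values measure the spread between these samples, which may be technical.

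The neural crest is an embryonic population that leaves the dorsal neural tube and gives rise to peripheral glia, melanocytes, peripheral neurons and part of the smooth muscle of the aortic arch. In the Schwann cell lineage the transcription factor SOX10 is kept from the crest to the adult, the neuregulin receptor ERBB3 carries the survival signal from axons, and the factors POU3F1 and EGR2 start the myelin program. Precursor, immature and injury-activated Schwann cells carry the low-affinity neurotrophin receptor NGFR and SOX2, while myelinating cells make MBP and PMP22. Nerves of the vessel wall, with their Schwann cells, run mainly in the adventitia.

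Each sample held 20778077 to 20888041 estimated counts. Values are given as these counts, or scaled to the library total (CPM) after TMM normalization between libraries, and levels are compared between genes only as CPM per kilobase of exon. A gene was called lower or higher in *Hint1*-/- MASMCs when the Benjamini-Hochberg adjusted p of edgeR's quasi-likelihood test was under 0.05 and the fold change exceeded 1.5, and 13535 genes had enough counts to be tested. The deleted gene itself was at 2272 to 2364 counts in WT and 713 to 778 counts in *Hint1*-/- samples, so that 32.1% of its WT level was still counted in the samples labelled as lacking it. Samples of 1 genotype always differed less than samples of different genotypes, with a chi-square per gene of 2.10 to 5.47 within and 11.8 to 17.2 between genotypes.

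Most genes of the crest and of precursor Schwann cells were low in *Hint1*-/- MASMCs, as were 2 of the myelin genes tested, and the other 6 myelin genes tested were close to their WT level. Of the 34 members, 30 were tested, 16 were called lower and 0 were called higher, against 1.49% of all tested genes called lower and 1.34% called higher, and nothing is read from that contrast because the members were chosen on it. The same filter removed *Gfra3*, *Mal*, *Pou3f1* and *Gfap*. *Sox2*, *Gldn* and *Cdh19* passed it only through their WT samples, with 0 to 6, 5 to 16 and 8 to 19 counts in *Hint1*-/- samples. In bulk samples, fewer cells of a type and less RNA per cell cannot be told apart. Of the 13 crest and precursor genes, 10 of the 12 tested were called lower, with a median log2 fold change of -1.56 and a range of -3.73 to 0.45. Of the 10 myelin genes, 2 of the 8 tested were called lower, with a median of -0.17, while the median over all tested genes was 0.0003. The myelin gene *Mal*, outside that median, entered the fit under 6 other settings, with no filter or only through its WT samples. It was called lower in each, and nothing is read from these calls.

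**Figure D1:**
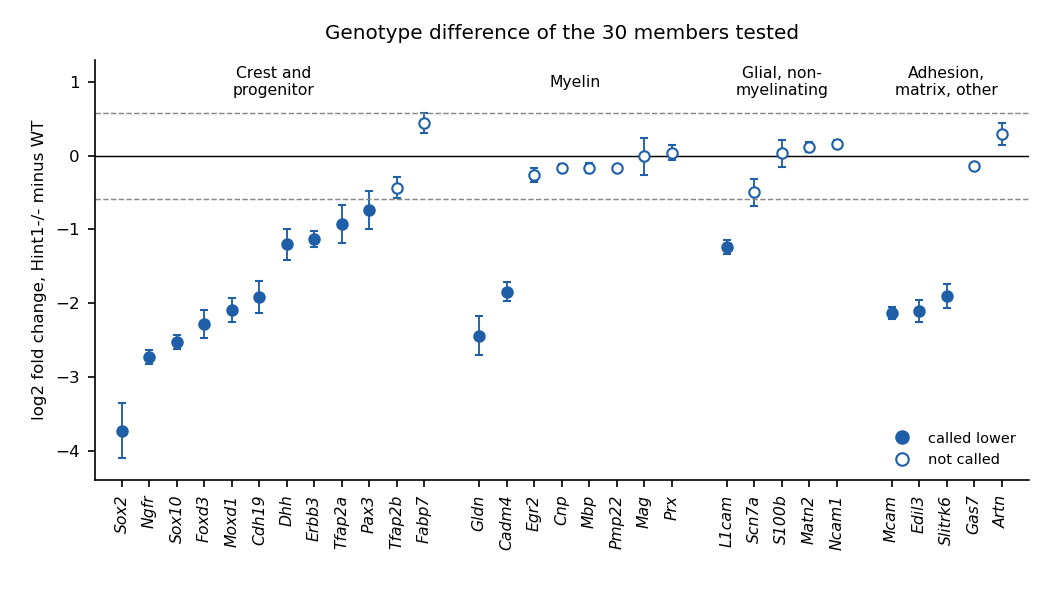
Fitted log2 fold change (*Hint1*-/- minus WT, y axis) of the 30 tested members (x axis, grouped by role), with bars of 1 SE, filled points for genes called lower, open points for genes not called and dashed lines at the fold limit. Crest and precursor genes spread down to -3.73 for *Sox2*, and 6 of the 8 myelin genes lie between -0.26 and 0.04.

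Upstream sequences of 4 members that were called lower are shown to let the reader see the start-site DNA of a precursor receptor (*Ngfr*), an adhesion gene (*Mcam*) and the 2 myelin-group genes that fell with the crest genes (*Gldn* and *Cadm4*). Each is the 250 bases before the transcription start from RefSeq on GRCm38.p6, written 5′ to 3′ on the gene's strand in lower case. The regions are chr11:95587699-95587948 on the minus strand for *Ngfr*, and on the plus strand chr9:44134408-44134657 for *Mcam*, chr9:54286236-54286485 for *Gldn* and chr7:24481773-24482022 for *Cadm4*. Capitals mark the letters GCCNNNGGC, the palindromic motif of AP-2 factors such as TFAP2A and TFAP2B, and ACAATG or ACAAAG on either strand, the core letters bound by SOX factors.
Ngfr: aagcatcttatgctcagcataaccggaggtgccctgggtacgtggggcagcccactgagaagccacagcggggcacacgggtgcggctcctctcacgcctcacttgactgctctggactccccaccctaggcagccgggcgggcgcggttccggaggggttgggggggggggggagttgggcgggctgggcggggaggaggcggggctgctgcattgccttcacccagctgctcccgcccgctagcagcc
Mcam: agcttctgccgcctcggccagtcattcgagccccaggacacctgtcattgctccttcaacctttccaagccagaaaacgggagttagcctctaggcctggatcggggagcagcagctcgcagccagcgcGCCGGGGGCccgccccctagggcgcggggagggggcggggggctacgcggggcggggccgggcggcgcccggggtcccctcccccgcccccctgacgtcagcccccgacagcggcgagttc
Gldn: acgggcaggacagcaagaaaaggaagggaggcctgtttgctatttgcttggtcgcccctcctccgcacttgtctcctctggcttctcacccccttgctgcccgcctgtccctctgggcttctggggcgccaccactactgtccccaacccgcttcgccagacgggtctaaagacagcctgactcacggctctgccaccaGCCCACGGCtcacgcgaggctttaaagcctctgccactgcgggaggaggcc
Cadm4: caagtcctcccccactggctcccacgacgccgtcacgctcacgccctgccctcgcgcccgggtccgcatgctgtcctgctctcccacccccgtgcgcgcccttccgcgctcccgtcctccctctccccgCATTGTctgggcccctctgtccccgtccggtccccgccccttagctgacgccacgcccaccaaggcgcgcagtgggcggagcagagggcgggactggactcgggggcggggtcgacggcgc
The AP-2 letters began 121 bases before the start of *Mcam* and 51 bases before that of *Gldn*, ACAATG lay on the reverse strand 121 bases before the start of *Cadm4*, and the *Ngfr* window held none of the motifs.

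The RefSeq table held promoters of 23 of the 34 members, as 34 windows of 300 bases reaching from 250 bases before to 50 bases after a start. GCCNNNGGC was in 9 of these 34 windows (26.5%) and in 5450 of all 32851 windows of that length (16.6%). ACAATG was in 1 member window (2.94%), against 12.6% of all windows, and ACAAAG was in 4 (11.8%), against 18.7%. Counted by gene, the AP-2 letters were found in 2 of 11 called members, *Gldn* and *Mcam*, and in 5 of 12 other members, *Artn*, *Egr2*, *Mag*, *Pmp22* and *Prx*. These matches describe letters in the window and not occupied sites.

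Among the transcription factors of the group, *Sox10*, *Sox2* and *Foxd3* were far lower in every *Hint1*-/- sample. *Sox10* (chr15:79154908-79165240) was counted 257, 257, 266 and 240 times in the 4 WT samples and 45, 41, 48 and 41 times in the 4 *Hint1*-/- samples. The genotypes were far from overlapping, and the mean level went from 12.2 ± 0.509 to 2.11 ± 0.161 CPM (SD, n = 4), 5.77-fold lower. *Sox2* (chr3:34650405-34652461), which holds Schwann cells in an immature state, was counted 42, 40, 36 and 49 times in WT and 1, 0, 6 and 5 times in *Hint1*-/- samples. Pooled over samples these were 167 against 12 counts (fitted log2 fold change -3.73, SE 0.37), a ratio of 13.8 with a 95% counting interval of 7.70 to 27.3. *Foxd3* (chr4:99656299-99658622), an early crest factor that keeps crest cells undifferentiated, had 85, 73, 64 and 64 counts in WT and 17, 13, 17 and 11 counts in *Hint1*-/- samples, a log2 fold change of -2.28 (SE 0.19). Each of these 3 factors was called lower under all of the 15 other settings in which it was tried. Those settings reuse the same samples and the contrast on which the members were chosen. They describe only how the calls depend on the processing.

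The other crest factors had smaller fold changes. *Pax3*, which marks crest and precursor Schwann cells, had 23, 39, 22 and 29 counts in WT and 15, 22, 19 and 11 in *Hint1*-/- samples. These ranges touched, and although its log2 fold change of -0.74 (SE 0.25) passed both limits, it did so under only 9 of 15 other settings and was -0.55 without WT replicate 2. It was lost also with DESeq2 and without WT replicate 4 or *Hint1*-/- replicate 1, 3 or 4. *Tfap2a*, the AP-2α gene of early crest, had 36, 38, 20 and 23 counts in WT and 20, 13, 16 and 12 in *Hint1*-/- samples, again with touching ranges (log2 fold change -0.92, SE 0.26). Its call was lost without WT replicate 1, WT replicate 2 or *Hint1*-/- replicate 4, and annotated antisense genes share its exons. The related *Tfap2b*, at 70 to 90 counts in WT and 43 to 68 in *Hint1*-/- samples, was not called (-0.43, SE 0.15).

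The receptors and secreted signals were led by *Ngfr*, the p75 neurotrophin receptor. It was counted 481, 464, 470 and 415 times in WT and 83, 54, 67 and 70 times in *Hint1*-/- samples (chr11:95568818-95587735). Every *Hint1*-/- sample lay far below every WT sample, and the level went from 21.9 ± 1.39 to 3.30 ± 0.572 CPM (SD, n = 4), 6.62-fold lower. *Erbb3* (chr10:128567523-128589652) fell less, from 144, 168, 153 and 138 counts to 57, 70, 76 and 70 counts, 2.19-fold lower with no overlap. *Dhh*, the desert hedgehog ligand with which Schwann cells organise the nerve sheath, had 36, 35, 29 and 35 counts in WT and 16, 15, 11 and 16 in *Hint1*-/- samples (log2 fold change -1.20, SE 0.21). Its annotated exons share 546 bases with *Rhebl1* on the same strand, and *Rhebl1* had 24 to 36 counts in WT and 28 to 43 in *Hint1*-/- samples. *Gfra3*, the artemin coreceptor of precursors, had 4 counts over all WT and 0 over all *Hint1*-/- samples and was not tested. *Artn*, which encodes its ligand, was at 41 to 69 counts in WT and 66 to 76 in *Hint1*-/- samples and was not called (0.29).

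**Figure D2:**
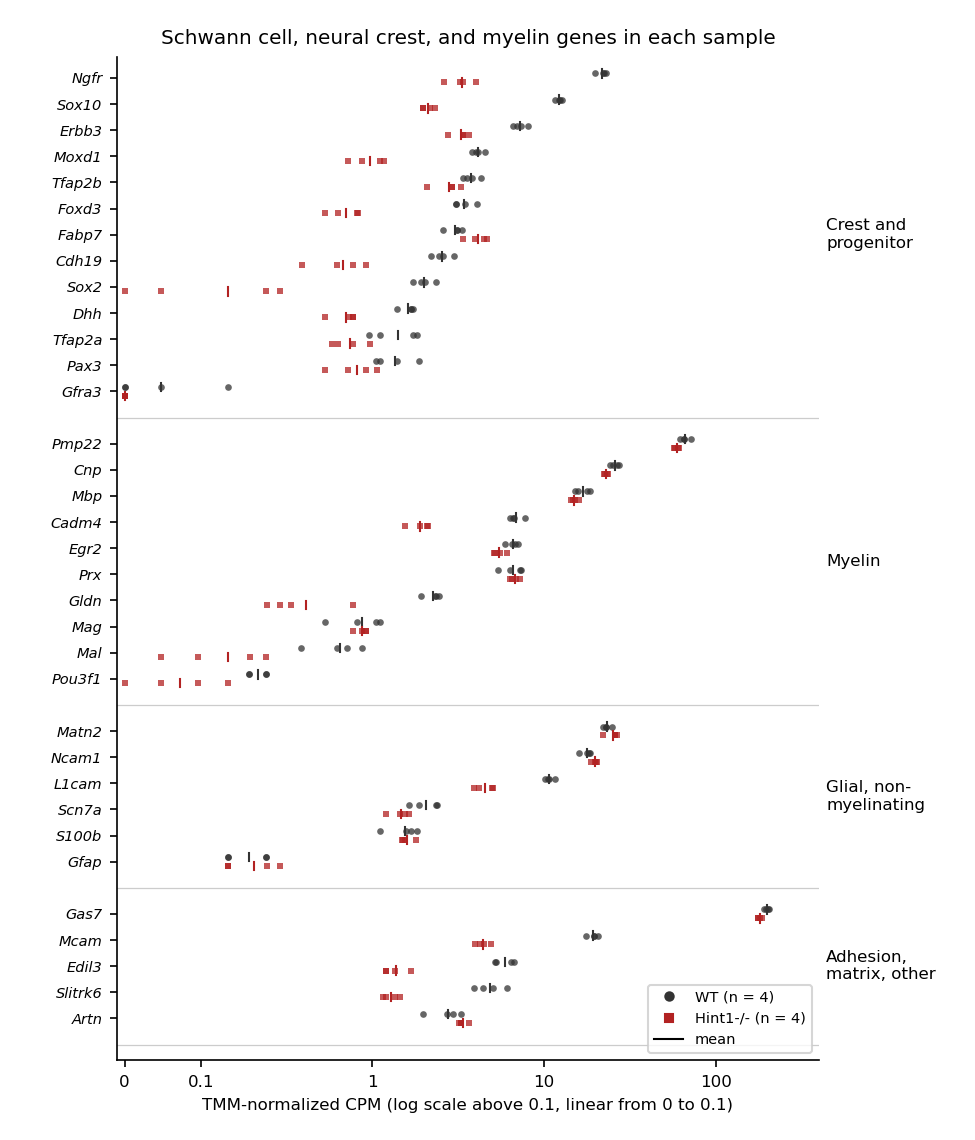
TMM-normalized CPM (x axis, logarithmic above 0.1 and linear below) of the 34 members (rows, grouped by role) in each of the 4 WT (circles) and 4 *Hint1*-/- samples (squares), with a vertical tick at each mean. For *Ngfr* and *Sox10* the 2 genotypes are far apart, and for *Pmp22*, *Cnp* and *Mbp* the points of the genotypes lie close together.

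Of the last crest and precursor genes, *Cdh19* and *Moxd1* were called lower and *Fabp7* was not called. *Cdh19*, a cadherin of Schwann cell precursors, had 46, 63, 54 and 51 counts in WT and 19, 8, 13 and 16 in *Hint1*-/- samples (log2 fold change -1.91, SE 0.22). *Moxd1*, a monooxygenase-family gene expressed in crest cells, had 94, 87, 80 and 84 counts in WT and 18, 24, 15 and 23 in *Hint1*-/- samples (-2.09, SE 0.17). Both were without overlap. *Fabp7*, the lipid-binding protein of immature glia, was the only crest and precursor gene above its WT level, with 65, 54, 65 and 69 counts in WT and 70, 82, 97 and 93 in *Hint1*-/- samples. Its groups did not overlap, but a log2 fold change of 0.45 (SE 0.13) was within the fold limit and it was not called.

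Of the myelin genes, *Pmp22*, *Mbp*, *Cnp*, *Mag*, *Prx* and *Egr2* were not called. *Pmp22*, a protein of compact myelin that fibroblasts and other cells also make, was counted 1367, 1500, 1368 and 1297 times in WT and 1258, 1258, 1193 and 1198 times in *Hint1*-/- samples (log2 fold change -0.16, SE 0.043). *Mbp*, which holds the cytoplasmic faces of myelin together, was counted 330, 319, 389 and 372 times and 316, 304, 330 and 298 times, an overlapping pair of ranges (-0.16, SE 0.070). *Cnp*, a phosphodiesterase of noncompact myelin, was counted 556, 575, 524 and 505 times and 483, 487, 471 and 467 times (-0.17, SE 0.053). The *Hint1*-/- samples of *Pmp22* and *Cnp* lay just below all WT samples, at a distance inside the fold limit, and *Cnp* shares 154 bases with *Dnajc7* on the opposite strand. *Mag*, an adhesion protein of the inner myelin wrap (11 to 23 and 16 to 19 counts), and *Prx*, a scaffold of the outer myelin membrane (113 to 152 and 132 to 150 counts), were not called, at -0.01 and 0.04. The myelin regulator *Egr2* had 124 to 147 counts in WT and 106 to 126 in *Hint1*-/- samples (-0.26, SE 0.096) and was not called.

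*Gldn* and *Cadm4*, the called members of the myelin group, encode proteins at the contact between Schwann cell and axon. *Gldn*, or gliomedin, which gathers sodium channels at the node of Ranvier, had 48, 49, 40 and 51 counts in WT and 16, 5, 6 and 7 in *Hint1*-/- samples (log2 fold change -2.44, SE 0.27). *Cadm4*, the main nectin-like adhesion molecule on the internodal Schwann cell surface, had 162, 133, 138 and 139 counts in WT and 43, 39, 32 and 44 in *Hint1*-/- samples (-1.84, SE 0.13). Neither gene overlapped between genotypes, and both lie on other chromosomes (9 and 7) than *Hint1*. The sparse *Mal*, a proteolipid of myelin, had 18, 15, 8 and 13 counts in WT and 2, 1, 5 and 4 in *Hint1*-/- samples, a pooled ratio of 4.47 (95% counting interval 2.36 to 9.17), and *Pou3f1* had 18 pooled WT and 6 pooled *Hint1*-/- counts (2.98, interval 1.13 to 9.16). The filter on low counts removed both. *Mal* entered the fit under 6 other settings, with no filter or only through its WT samples. It was called lower in all 6, with a log2 fold change of -2.11 when no filter was used. These calls are a description and lend the difference no support. The 2 intervals cover counting error only.

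*Ngfr* and *Sox10*, the crest genes named for being low, and *Gldn* of the myelin group were also set against *Mbp* in the same library. *Ngfr* had 111.7 to 145.9 counts for every 100 counts of *Mbp* in WT and 17.8 to 26.2 in *Hint1*-/- samples. For *Sox10* the ratio was 64.6 to 80.5 in WT and 13.5 to 14.6 in *Hint1*-/- samples, and for *Gldn* 10.3 to 15.3 and 1.64 to 5.06. The ratio of *Mag* to *Mbp* ran from 3.34 to 6.19 in WT and from 5.26 to 6.38 in *Hint1*-/- samples, which overlap. The crest receptor and factor also changed unequally among themselves, since *Sox10* had 1.53 to 1.79 counts for each *Erbb3* count in WT and 0.586 to 0.790 in *Hint1*-/- samples. These ratios restate the contrast on which the members were chosen and carry no test. Which cells of these bulk samples made the *Mbp* RNA was not tested.

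**Figure D3:**
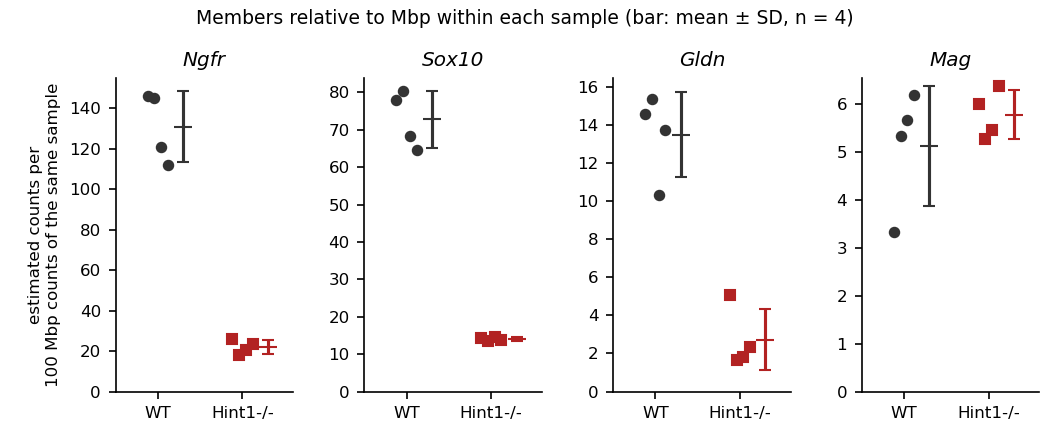
Counts of *Ngfr*, *Sox10*, *Gldn* and *Mag* (1 panel each) for every 100 counts of *Mbp* in the same sample (linear y axis from 0), with a point for each of the 4 WT and 4 *Hint1*-/- samples and bars of mean ± SD beside them. The genotypes do not overlap for *Ngfr*, *Sox10* and *Gldn* and overlap for *Mag*.

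Of the general and nonmyelinating glial genes, *L1cam* alone was called. This adhesion molecule, kept by nonmyelinating Schwann cells, had 240, 225, 219 and 212 counts in WT and 105, 86, 104 and 81 in *Hint1*-/- samples (log2 fold change -1.24, SE 0.094), and it shares 100 bases with *Arhgap4* on the same strand. *S100b*, the calcium-binding protein used as a general Schwann cell marker, stayed at 23 to 38 counts in WT and 31 to 37 in *Hint1*-/- samples (0.03). *Sox10* had 6.76 to 11.6 counts for each *S100b* count in WT and 1.11 to 1.50 in *Hint1*-/- samples. *Ncam1*, the neural cell adhesion molecule, was at 335 to 388 and 392 to 424 counts, which do not overlap, with a fold change inside the limit (0.16). *Matn2*, a matrix protein, at 458 to 517 and 460 to 552 counts (0.12), and *Scn7a*, the sodium-sensing channel of nonmyelinating cells, at 34 to 50 and 25 to 34 counts (-0.49), were not called. The intermediate filament gene *Gfap*, with 16 and 17 pooled counts, was not tested.

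The other members held 3 surface or matrix genes that were called lower. *Mcam*, the adhesion molecule CD146 of the vessel wall and of crest derivatives, was counted 410, 409, 432 and 366 times in WT and 93, 82, 102 and 88 times in *Hint1*-/- samples (chr9:44134469-44142727). That is a change from 19.3 ± 1.31 to 4.40 ± 0.399 CPM (SD, n = 4), or to 22.7% of WT. *Edil3*, an integrin-binding matrix protein, had 108, 141, 135 and 110 counts in WT and 25, 28, 25 and 35 in *Hint1*-/- samples (log2 fold change -2.11, SE 0.15). *Slitrk6*, a leucine-rich membrane protein of the nervous system, had 92, 127, 105 and 81 counts in WT and 30, 28, 24 and 25 in *Hint1*-/- samples (-1.90, SE 0.17). None of the 3 overlapped between genotypes. *Gas7*, an actin-associated protein, was abundant in both, with 3982 to 4260 and 3669 to 3853 counts (-0.14), and was not called.

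In WT samples the level per kilobase of exon was highest for *Pmp22* (28.1 ± 1.65 CPM per kb, SD, n = 4), *Gas7* (17.5 ± 0.544) and *Cnp* (7.10 ± 0.403). *Ngfr* followed at 6.35 ± 0.404, *Mcam* at 5.77 ± 0.390, *Sox10* at 4.00 ± 0.167 and *Matn2* at 3.70 ± 0.190 CPM per kb. The sample ranges of *Cnp* and *Ngfr*, of *Ngfr* and *Mcam*, and of *Sox10* and *Matn2* overlapped, so these neighbours did not differ beyond their spread. In *Hint1*-/- samples *Pmp22*, *Gas7* and *Cnp* were again the first 3, and *Ngfr* and *Sox10* stood at the ranks 13 and 15 with 0.958 ± 0.166 and 0.691 ± 0.0527 CPM per kb. Among the 13535 tested genes, 18 were called lower by more than 4-fold. Of these 18, 8 were members: *Sox2*, *Ngfr*, *Sox10*, *Gldn*, *Foxd3*, *Mcam*, *Edil3* and *Moxd1*. Nothing is read from that share, because the members were chosen on this contrast. The 16 called members lay on 11 chromosomes, with only *Ngfr* on the chromosome of *Hint1*. The 2 genotypes did not overlap in CPM for 20 of the 30 tested members and for 23.0% of all tested genes. Among the members below their WT level, just inside the limits stood *Pax3* (log2 fold change -0.74) and just outside stood *Scn7a* (-0.49) and *Tfap2b* (-0.43).

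Other genes of the same pathways were read from a list written by function without the members, of which 80 were counted and 60 tested. Of these, 4 were lower, 2 were higher and 54 were not called, with a median log2 fold change of 0.03. By edgeR, and by DESeq2 and limma-voom, 0 of the 16 tested crest factors were called, with 7 at an unadjusted p under 0.05 and values from -0.31 to 0.49. All 7 also had an edgeR adjusted p under 0.05. They were higher in *Hint1*-/- samples, opposite to the called members, and missed a call only by the fold limit. Among them *Sox9*, a SOXE factor related to *Sox10* that is also made by mesenchyme and cartilage, had 346 to 401 counts in WT and 507 to 527 in *Hint1*-/- samples (log2 fold change 0.48, adjusted p 3.6e-06), inside the fold limit. By edgeR's quasi-likelihood test 2 of 10 myelin-list genes were lower. The nectin-like adhesion genes *Cadm3* (-1.25, SE 0.20, adjusted p 0.000119) and *Cadm2* (-0.74, SE 0.21, adjusted p 0.0155) were lower, although *Cadm2* was not called with DESeq2.

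Apart from the members *Erbb3* and *Ngfr*, which were called lower, the tested ligands and receptors of 3 of the signals stayed inside the fold limit. Of the ErbB list, with the neuregulin ligands and the partner receptors of *Erbb3*, edgeR, DESeq2 and limma-voom called 0 of 4 tested genes, 3 of which had an unadjusted p under 0.05, and *Nrg1* had a log2 fold change of 0.32. Those 3 genes were higher in *Hint1*-/- samples, with edgeR's adjusted p also under 0.05. The neurotrophin list (6 tested, 3 at an unadjusted p under 0.05) and the GDNF list (4 tested, 1 at such a p) also held 0 genes called by any of the 3 tools, and *Bdnf*, a ligand of NGFR, had a log2 fold change of 0.24. The genes at such a p also had an edgeR adjusted p under 0.05. *Bdnf* and *Maged1* (0.13) were higher, and *Sort1* (-0.36) and *Gfra2* (-0.49) were lower. Of 9 hedgehog genes, 1 was higher. *Hhip*, a target and inhibitor of the pathway, had 37 to 60 counts in WT and 60 to 83 in *Hint1*-/- samples (log2 fold change 0.59, SE 0.16, adjusted p 0.0129), a call lost with upper-quartile scaling and without WT replicate 3, WT replicate 4 or *Hint1*-/- replicate 2. *Ptch1* and *Gli1*, also targets of the pathway, had values of 0.13 and -0.33 and were not called.

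Of the 11 tested adhesion genes of Schwann cells, *Nrcam*, a partner of gliomedin at the node, was lower, with 87 to 108 counts in WT and 32 to 48 in *Hint1*-/- samples (-1.28, SE 0.14, adjusted p 1.8e-06). The laminin receptor subunit *Itga6* was lower as well (-0.65, SE 0.090, adjusted p 3.1e-05), a call lost without WT replicate 2 (-0.57). The study drew *Itga6* from these samples together with *Itga7*, *Itga8* and *Itgb8*, and then singled it out by separate q-PCR. *Chl1*, a relative of *L1cam*, was higher, at 89 to 113 against 139 to 171 counts (0.62, SE 0.10, adjusted p 0.000216), and was not called without WT replicate 3 or *Hint1*-/- replicate 1.

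**Figure D4:**
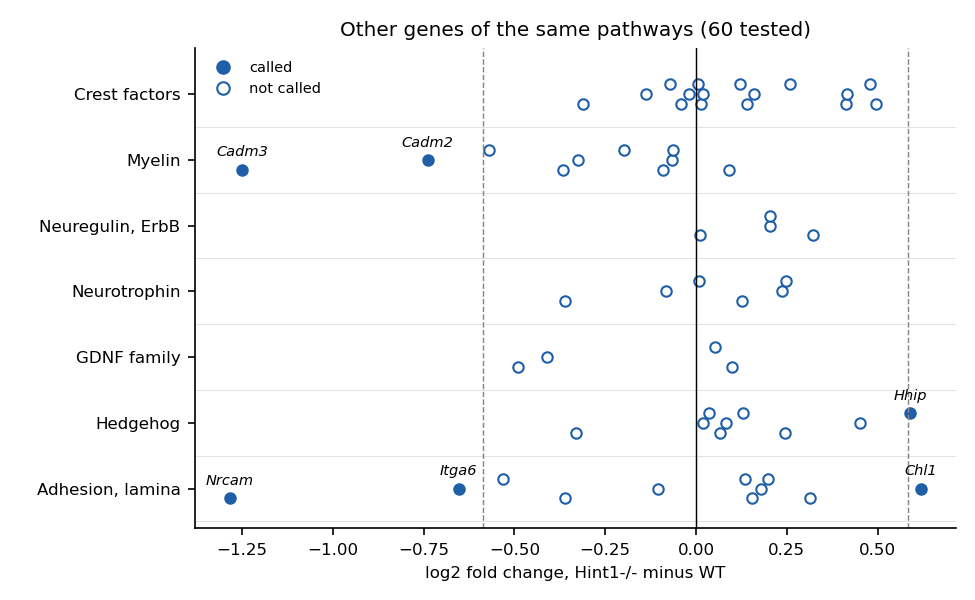
Fitted log2 fold change (*Hint1*-/- minus WT, x axis) of the 60 tested pathway genes by list (rows), with filled points for the 6 called genes, open points for the others and dashed lines at the fold limit. *Nrcam* is lowest at -1.28 and *Chl1* highest at 0.62, and no gene of the crest factor, ErbB, neurotrophin or GDNF lists was called.

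The defining markers of Schwann cells reported here were all members themselves, so their values restate the contrast on which the members were chosen. Of *Sox10*, *S100b*, *Cdh19*, *Erbb3* and *Foxd3*, all but *S100b* were called lower, and their summed level was 25.3 to 28.3 CPM in WT and 7.88 to 8.94 CPM in *Hint1*-/- samples. Of the markers of other crest derivatives, *Tyrp1*, *Dct* and *Mlana* of melanocytes stayed under 5 counts in every sample, as did 5 of 7 neuron markers. By edgeR, DESeq2 and limma-voom 0 of the 3 melanocyte markers tested were called, with 0 at an unadjusted p under 0.05. The melanocyte list summed to 19.0 to 22.6 CPM in WT and 19.6 to 23.7 CPM in *Hint1*-/- samples. Most of this was *Mitf*, at a mean of 19.32 and 19.05 CPM (364 to 430 and 371 to 453 counts). The 1 tested neuron marker, *Tubb3*, was lower without overlap, at 1612 to 1718 counts in WT and 1318 to 1433 in *Hint1*-/- samples. Its log2 fold change of -0.27 (edgeR's adjusted p 4.3e-05) was inside the fold limit, so it was not called. The neuron list summed to 77.6 to 82.7 and 63.6 to 69.4 CPM, most of it *Tubb3* (mean 79.97 and 66.23 CPM). The 7 endothelial markers stayed at 5.53 to 8.08 CPM in WT and 5.19 to 7.49 CPM in *Hint1*-/- samples with 0 of 5 tested called by the 3 tools and 1 at an unadjusted p under 0.05. Of the pericyte list, *Cspg4* was lower (log2 fold change -0.75) among 6 tested genes, and the list summed to 462 to 494 and 432 to 481 CPM.

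Of the smooth muscle markers, which the label of the cells calls for, *Acta2* and *Tagln* were abundant in every sample, and *Des* was at 28 to 59 counts. *Acta2* had 15956 to 17855 counts in WT and 11640 to 12331 in *Hint1*-/- samples, and *Tagln* 8120 to 8644 and 7129 to 8196. Inside the fold limit but without overlap, *Acta2* (-0.51, edgeR's adjusted p 1.4e-08) and *Lmod1* (-0.31) were lower and *Smtn* (0.25) was higher. The 7 markers summed to 1352 to 1469 CPM in WT and 1117 to 1207 CPM in *Hint1*-/- samples, and *Myh11* (-1.54), *Cnn1* (-1.12) and *Des* (-0.61) were called lower. Markers of fibroblasts summed to 1730 to 1801 CPM in WT and 2619 to 2754 CPM in *Hint1*-/- samples, with *Lum* (0.88) and *Dcn* (0.83) higher and *Dpt* (-0.79) lower of 7. The 7 macrophage markers summed to 2263 to 2621 and 1849 to 1968 CPM, with 0 called by edgeR, DESeq2 and limma-voom and all 7 at an unadjusted p under 0.05. Of these, 6 were lower without overlap and inside the fold limit (log2 fold changes -0.25 to -0.44, edgeR's adjusted p 3.2e-07 to 0.00036), and *Mrc1*, at 17 to 25 counts in WT and 21 to 37 in *Hint1*-/- samples, had a value of 0.58 (adjusted p 0.074). The part of these other cell types in the change of the Schwann cell and crest genes was not tested.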

How the data were processed

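Total RNA of 4 WT and 4 *Hint1*-/- samples of PDGF-BB-treated MASMCs was sequenced after oligo(dT) selection. The authors deposited 1 table of estimated counts per gene symbol for each sample, and these expected counts were not normalized. The study's methods name BGISEQ-500 reads of 50 bp, HISAT2 and mm10, and the submitters' processing notes name Bowtie2, RSEM 1.3.1, DESeq2 1.4.5 and mm10, so the aligner is uncertain. The annotation and the strand setting were not given in the sources used here, and reads of overlapping or antisense genes may be shared. Genes were grouped only by the labels.

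Estimated counts were rounded to whole numbers. Genes were filtered with filterByExpr, scaled by TMM and fitted over all 8 samples with edgeR 4.0.16 (quasi-likelihood, two-sided) in R 4.3.3, with Benjamini-Hochberg adjustment over all tested genes. CPM per kb used the summed exon length in GRCm38. On simulated data 96.5% of 200 genes changed 2-fold were recovered, with 3 false calls among 13463 genes. The simulation gave every gene the same preset dispersion, not one estimated from these samples. It checks the code and does not measure how the test performs on these data. Alternatives were DESeq2 1.42.0, limma-voom (limma 3.58.1), other scalings and filters, no fold limit, a replicate block and each sample left out.

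The members and lists were chosen with earlier results of these data known. Named were all members, called pathway and marker genes and markers near 0. A few uncalled relatives and markers, such as *Sox9*, *Nrg1*, *Bdnf*, *Ptch1*, *Gli1* and *Mitf*, were added after their values were seen. Some listed genes are not reported here and were left out of the list counts. Counting intervals are exact at 95% and cover counting error only.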

Additional observations from a re-analysis of the deposited data

Results flagged for a closer look

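In 88 groups of 4 samples (44 genes in each genotype), 4 held a sample that stood apart from the other 3 by a gap, as a share of the group's range in log2 CPM, above Dixon's 95% limit, where chance marks about 1 in 20 groups, or 4.4 of 88. *Dhh* was marked in both genotypes, at 29 counts in WT replicate 3 against 35 to 36 (gap over range 0.841) and at 11 counts in *Hint1*-/- replicate 3 against 15 to 16 (0.831). *S100b* was marked at 37 counts in *Hint1*-/- replicate 4 against 31 to 32 in the others (0.838). *Matn2* was marked at 460 counts in *Hint1*-/- replicate 3 against 535 to 552 (0.842).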

How the results depend on the processing

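Of 16 alternatives, 8 left out 1 sample and 15 refitted the model. Over the 540 values these gave for 36 named genes, no called gene changed direction, 17 calls were lost and *Scn7a* was called without WT replicate 4, while *Mag*, *Prx* and *S100b*, uncalled and near 0, changed sign. *Mal*, absent from those 36, was called in the 6 settings that tested it: no filter, and without WT replicate 3 or any 1 *Hint1*-/- sample. Where a filter was used, *Mal* passed it only through its WT samples. Without the fold limit 2907 genes were called in place of 383, with 20 members lower and 1 higher (*Fabp7*), and 9 pathway genes lower and 19 higher (4 and 2 with the limit). With no filter on low counts the crest and precursor median was -1.91, since *Gfra3*, with 4 counts in all, then entered it. DESeq2 called 336 genes and 15 members, and upper-quartile scaling left 1 pathway gene higher.

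Leaving out 1 sample in turn gave 350 to 390 called genes, 14 to 17 members lower and 0 higher, 4 to 6 pathway genes lower and 0 to 2 higher, with 0 higher without WT replicate 3 and 1 higher without WT replicate 4 or *Hint1*-/- replicate 1 or 2. The crest and precursor median then ran from -1.65 to -1.47 and the myelin median from -0.19 to -0.16. Same-numbered samples of the 2 genotypes deviated together with correlations of -0.045 to 0.0814 and share only a number, and with the replicate number as a block 382 genes and 16 members were called. Depth limits *Gfra3*, *Gfap*, *Pou3f1* and *Mal*, whose differences rest on a few counts per sample.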
